A study of Mus musculus with 8 samples.

Results

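The 10 genes described here were grouped under cytotoxic lymphocytes, that is natural killer (NK) cells and cytotoxic T cells. They were followed in RNA-seq of tumor-associated macrophages (TAMs). They were the granule and effector genes Gzma, Gzmb, Prf1 and Nkg7 and the surface receptor genes Klrd1, Ncr1, Il2rb, Cd3e, Cd3g and Ccr6. Of the receptor genes, Cd3e and Cd3g belong to T cells in general, and Ccr6 is not a cytotoxic gene. These 10 of the 23413 genes counted were selected on their read counts, since earlier results of the same table had shown such genes high in the mice given thiostrepton beside the tumor. Their levels in those mice are therefore given as a description without a test.

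Male C57BL/6 (B6) mice of 8 to 10 weeks carried B16F10 melanoma, a transplantable mouse melanoma line, under the skin. They were dosed on days 6 and 12, and TAMs were purified from the tumors on day 18. All carried the same tumor and none is labelled with the antibody of the study's other arms. In the DMSO group 2 mice received the vehicle, in the I.P. group 4 mice received thiostrepton by intraperitoneal injection, and in the S.C. group 2 mice, labelled IS1 and IS2, received it by paratumor subcutaneous injection at 20 mg/kg. Thiostrepton is a cyclic oligopeptide antibiotic. Per the study's methods, the cells of each mouse were sorted and sequenced on their own, as CD45+ F4/80+ CD11b+ Gr-1- cells. CD45 marks leukocytes, F4/80 marks macrophages, CD11b is found on macrophages and other leukocytes, and Gr-1 marks neutrophils and some monocytes. The gate names no lymphocyte marker. The route of the DMSO and the I.P. dose of these mice are not given in the sources used here. The question put to the counts was how each gene stood in each mouse, and how S.C. mice 1 and 2 differed from the others and from each other.

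Cytotoxic lymphocytes kill target cells by releasing granules. Perforin opens the target membrane, granzymes enter and cleave proteins inside the cell, and NKG7 is needed for efficient release of the granules. NK cells are steered by germline-encoded receptors and T cells by the T cell receptor with its CD3 chains, and both kinds of cell can depend on interleukin-2 or interleukin-15 signals through the receptor chain encoded by Il2rb. Macrophages are not a usual source of CD3 chains, Ncr1 or granzyme A.

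The libraries held 14127506 to 17577466 counts. A floor of 3 counts per library stood at 0.168 to 0.217 CPM, in which counts are scaled to a common library size, here adjusted by TMM, a normalization that assumes most genes do not change. Intervals and floors below cover counting error only. The summed level of 12 macrophage genes was 28400 to 41500 CPM in every mouse, against 0.122 to 49.9 CPM for the summed 10 genes. Of 9325 genes whose mean over the mice reached 5 CPM, 0.525% and 0.365% were at 0 counts in S.C. mice 1 and 2, and 0.0107% to 0.129% in the other 6 mice. In bulk RNA fewer cells of a type and less RNA per cell cannot be told apart.

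The 10 genes did not stand out together in the S.C. mice. Gzma, Nkg7, Il2rb and Cd3g were higher in both S.C. mice than in all 6 other mice, which makes 4 of 10. Those 4 were also the genes with both S.C. mice above both DMSO mice, as were 14.6% of the genes with at least 15 counts over all mice. Both S.C. mice were above all 6 others for 5.12% of those 13706 genes (all genes here and below), and both figures are background only, since these levels chose the genes. Prf1, Cd3e and Ncr1 were high in S.C. mouse 1 and at 0 or 1 count in S.C. mouse 2. Gzmb and Klrd1 were highest in I.P. mouse 3, and Ccr6 had no count in either S.C. mouse.

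Promoter sequences are shown for 2 genes that were high in both S.C. mice (Gzma and Cd3g) and 3 that were high in S.C. mouse 1 alone of that group (Gzmb, Prf1 and Ncr1), so that their upstream sequence can be set beside their levels. Each is the 250 bases before the RefSeq start of the gene in build GRCm38.p6, written 5′ to 3′ on the strand of the gene. Capitals mark matches on either strand to 3 short motifs, GTGTGA for T-box factors, TGTGGT for RUNX factors and AGGAAGT for ETS factors.
Gzma, chr13:113100982-113101231, minus strand: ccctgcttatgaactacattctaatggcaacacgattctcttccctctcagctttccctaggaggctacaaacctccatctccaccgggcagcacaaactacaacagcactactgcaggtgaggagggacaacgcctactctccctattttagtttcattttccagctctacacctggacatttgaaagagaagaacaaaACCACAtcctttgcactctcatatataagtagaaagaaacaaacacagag
Cd3g, chr9:44980432-44980681, minus strand: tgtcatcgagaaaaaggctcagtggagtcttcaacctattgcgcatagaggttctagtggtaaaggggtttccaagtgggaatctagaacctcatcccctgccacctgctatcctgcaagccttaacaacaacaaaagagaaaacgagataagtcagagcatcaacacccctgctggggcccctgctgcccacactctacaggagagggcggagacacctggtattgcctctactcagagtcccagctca
Gzmb, chr14:56262335-56262584, minus strand: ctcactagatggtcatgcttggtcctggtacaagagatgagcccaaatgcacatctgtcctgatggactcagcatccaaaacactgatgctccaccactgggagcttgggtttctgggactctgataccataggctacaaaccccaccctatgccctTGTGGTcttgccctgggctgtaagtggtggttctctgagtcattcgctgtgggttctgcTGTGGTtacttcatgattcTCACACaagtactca
Prf1, chr10:61297586-61297835, plus strand: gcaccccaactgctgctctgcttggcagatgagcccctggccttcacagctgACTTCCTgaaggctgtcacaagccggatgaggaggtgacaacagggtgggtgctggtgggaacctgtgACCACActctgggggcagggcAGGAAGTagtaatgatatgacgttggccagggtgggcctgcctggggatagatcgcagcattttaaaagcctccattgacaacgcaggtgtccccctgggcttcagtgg
Ncr1, chr7:4337465-4337714, plus strand: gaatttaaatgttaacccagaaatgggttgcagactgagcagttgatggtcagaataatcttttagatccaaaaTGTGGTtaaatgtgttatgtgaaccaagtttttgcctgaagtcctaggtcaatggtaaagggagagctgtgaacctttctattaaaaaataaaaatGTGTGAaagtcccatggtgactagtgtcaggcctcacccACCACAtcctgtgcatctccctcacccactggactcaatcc

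Windows were found for 8 of the 10 genes, all but Klrd1 and Il2rb. The T-box letters were in 3 of these 8 windows and in 12.2% of the 27025 windows of all genes. The RUNX letters were in 5 of 8 and in 14.2% of all windows, and the ETS letters in 3 of 8 and in 7.8%. The window of Gzma held 1 RUNX match, that of Gzmb 2 RUNX matches and 1 T-box match, that of Prf1 1 RUNX match and 2 ETS matches, that of Ncr1 2 RUNX matches and 1 T-box match, and that of Cd3g no match. No printed match overlapped another. Of the windows not printed, that of Nkg7, high in both S.C. mice, held 1 RUNX match and 1 T-box match. That of Cd3e, high in S.C. mouse 1 alone of that group, held 1 ETS match, as did that of Ccr6. A match describes letters only and says nothing of binding.

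Among the effector genes, Gzma encodes granzyme A, a trypsin-like protease of the granules. It lies at chr13:113093825-113100981 on the minus strand (GRCm38, GENCODE vM21). Gzma had 2 and 0 counts in DMSO mice 1 and 2, 0, 0, 0 and 6 counts in I.P. mice 1 to 4, and 222 and 95 counts in S.C. mice 1 and 2. Both S.C. mice were far above every other mouse, and the DMSO and I.P. mice overlapped near 0. Its level was 10.7 ± 5.49 CPM in S.C. mice (SD, n = 2), 0.0681 ± 0.0963 CPM in DMSO mice (SD, n = 2) and 0.09 ± 0.18 CPM in I.P. mice (SD, n = 4). Pooled over mice, this was 175-fold the DMSO level (95% interval 48.0 to 1450) and 121-fold the I.P. level (55.2 to 333). Of the Gzma CPM summed over 8 mice, 97.7% was in the S.C. mice.

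Gzmb encodes granzyme B, the protease that cleaves after aspartate and triggers apoptosis. It lies at chr14:56258838-56262260 on the minus strand, in a cluster with related granzyme genes, so that reads may have been split among them. Gzmb had 22 and 1 counts in DMSO mice 1 and 2, 0, 0, 183 and 0 counts in I.P. mice 1 to 4, and in S.C. mice 1 and 2 it had 87 and 1. One mouse of each group was high, and the other mice of every group had 0 or 1 count. I.P. mouse 3 stood at 10.3 CPM, S.C. mouse 1 at 5.73 CPM and DMSO mouse 1 at 1.5 CPM. The group levels were 0.778 ± 1.02, 2.56 ± 5.13 and 2.9 ± 4.0 CPM (SD, DMSO n = 2, I.P. n = 4, S.C. n = 2), each SD larger than its mean. Pooled, the S.C. level was 4.22-fold that of DMSO mice (2.64 to 7.0) and 1.11-fold that of I.P. mice (0.847 to 1.43), and both values rest on S.C. mouse 1.

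Prf1 encodes perforin, the protein that forms pores in the target cell. It lies at chr10:61297833-61304680 on the plus strand. Prf1 had 72 and 0 counts in DMSO mice 1 and 2, 0, 0, 24 and 0 counts in I.P. mice 1 to 4, and in S.C. mice 1 and 2 it had 82 and 0. It was seen in the 3 mice in which Gzmb was high, and the other 5 had none. DMSO mouse 1 (4.9 CPM) was close to S.C. mouse 1 (5.4 CPM), and the pooled S.C. level was 1.26-fold the DMSO level with an interval from 0.904 to 1.75. Without S.C. mouse 1 the difference of S.C. from DMSO mice on the log2 scale turned from 0.07 to -2.66 for Prf1, and from 0.98 to -1.46 for Gzmb.

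Nkg7 encodes a membrane protein of cytotoxic granules and lies at chr7:43437073-43438249 on the plus strand. Nkg7 had 82 and 5 counts in DMSO mice 1 and 2, 1, 0, 33 and 7 counts in I.P. mice 1 to 4, and in S.C. mice 1 and 2 it had 124 and 157. It was the effector gene with counts in the most mice, 7 of 8, and both S.C. mice were above all others. S.C. mice stood at 9.76 ± 2.24 CPM (SD, n = 2), and DMSO mouse 1 came next at 5.58 CPM. The pooled S.C. level was 3.56-fold that of DMSO mice (2.79 to 4.58) and 15.8-fold that of I.P. mice (11.3 to 22.4).

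**Figure D1:**
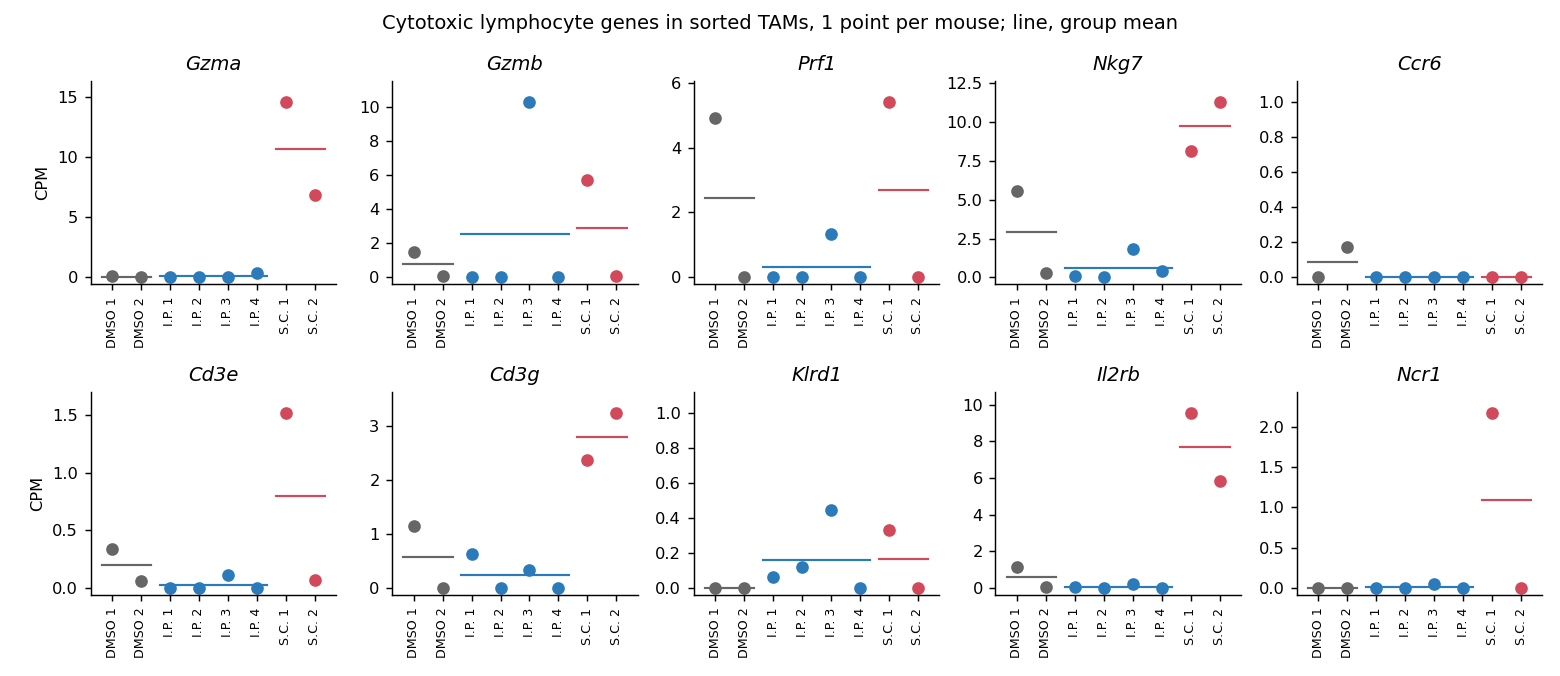
Level of each of the 10 genes in CPM (vertical axes, each with its own scale) in each of 8 mice (horizontal axes), with points for mice and lines for group means. Gzma, Nkg7, Cd3g and Il2rb have both S.C. mice on top, while Gzmb peaks in I.P. mouse 3 at 10.3 CPM and Prf1 is nearly as high in DMSO mouse 1 (4.9 CPM) as in S.C. mouse 1 (5.4 CPM).

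Among the receptor genes, Il2rb encodes the beta chain shared by the receptors for interleukin-2 and interleukin-15, which NK cells need for survival. It lies at chr15:78479256-78495271 on the minus strand. Il2rb had 17 and 1 counts in DMSO mice 1 and 2, 1, 0, 4 and 0 counts in I.P. mice 1 to 4, and in S.C. mice 1 and 2 it had 145 and 81. Both S.C. mice were above all others, with DMSO mouse 1 next. The S.C. level was 7.7 ± 2.62 CPM (SD, n = 2), pooled 13.8-fold that of DMSO mice (8.56 to 23.8) and 104-fold that of I.P. mice (43.9 to 323).

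Cd3e and Cd3g encode the epsilon and gamma chains of CD3, the signalling part of the T cell receptor. They are neighbours, at chr9:44998740-45009627 and chr9:44969572-44980431, both on the minus strand. Cd3g had 17 and 0 counts in DMSO mice 1 and 2, 10, 0, 6 and 0 counts in I.P. mice 1 to 4, and in S.C. mice 1 and 2 it had 36 and 45. Cd3e had 5 and 1 counts in DMSO mice 1 and 2, 0, 0, 2 and 0 counts in I.P. mice 1 to 4, and in S.C. mice 1 and 2 it had 23 and 1. S.C. mouse 2 thus had the highest Cd3g level, 3.25 CPM, and a single Cd3e count. Pooled, Cd3g in S.C. mice was 5.26-fold the DMSO level (3.09 to 9.46) and 11.6-fold the I.P. level (6.75 to 21.3). Cd3e was 4.41-fold (1.76 to 13.2) and 27.6-fold (6.85 to 241), with its S.C. counts almost all from mouse 1. Cd3d and Cd247, which encode the delta and zeta chains and were singled out after their values were seen, had no count in S.C. mouse 1 and 2 counts each in S.C. mouse 2. Cd3d was highest in DMSO mouse 1 with 17 counts and had 4 to 9 counts in the other 5 mice of the DMSO and I.P. groups. The 4 chains were therefore not high together in either S.C. mouse.

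Ncr1 encodes NKp46, an activating receptor used to define mouse NK cells, and lies at chr7:4337724-4345164 on the plus strand. Ncr1 had 0 counts in both DMSO mice, 0, 0, 1 and 0 counts in I.P. mice 1 to 4, and in S.C. mice 1 and 2 it had 33 and 0. Its reads came almost wholly from S.C. mouse 1, at 2.17 CPM, and S.C. mouse 2 was at 0, which allows a level of up to 0.217 CPM. The pooled S.C. level was at least 6.07-fold that of DMSO mice and 75.8-fold that of I.P. mice (12.7 to 3080, against 1 count). Klrd1, at chr6:129591782-129598775 on the plus strand, encodes CD94, which pairs with NKG2 proteins, and had 0 and 0 counts in DMSO mice 1 and 2, 1, 2, 8 and 0 counts in I.P. mice 1 to 4, and in S.C. mice 1 and 2 it had 5 and 0. It was highest in I.P. mouse 3 at 0.448 CPM, and the groups overlapped.

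Ccr6 encodes the receptor for the chemokine CCL20, found on B cells, type 17 T cells and some dendritic cells, and it is not a cytotoxic gene. It lies at chr17:8236043-8257141 on the plus strand. Ccr6 had 3 counts in DMSO mouse 2, none in DMSO mouse 1 and none in each of the other 6 mice. No mouse was above the floor of 3 counts, so no level of Ccr6 could be compared at this depth. Of the type 17 cell genes, Il17a, Il17f, Il22 and Il23r were at 0 counts in all 8 mice.

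Summed over the 10 genes, DMSO mice 1 and 2 stood at 14.8 and 0.635 CPM, I.P. mice 1 to 4 at 0.822, 0.122, 14.6 and 0.78 CPM, and S.C. mice 1 and 2 at 49.9 and 27.5 CPM. The S.C. mice led, DMSO mouse 1 and I.P. mouse 3 followed at similar levels, and the other 4 mice were under 1 CPM. The number of genes above the floor was 6 and 1 in DMSO mice 1 and 2, 1, 0, 6 and 2 in I.P. mice 1 to 4, and S.C. mice 1 and 2 had 9 and 4. The makeup of the sum differed among the 4 mice that carried it. It was led by Nkg7 and Prf1 in DMSO mouse 1, by Gzmb in I.P. mouse 3, by Gzma and Il2rb in S.C. mouse 1, and by Nkg7 and Gzma in S.C. mouse 2. Gzma was at 2 counts in DMSO mouse 1 and at 0 in I.P. mouse 3, where Prf1 had 72 and 24 counts.

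**Figure D2:**
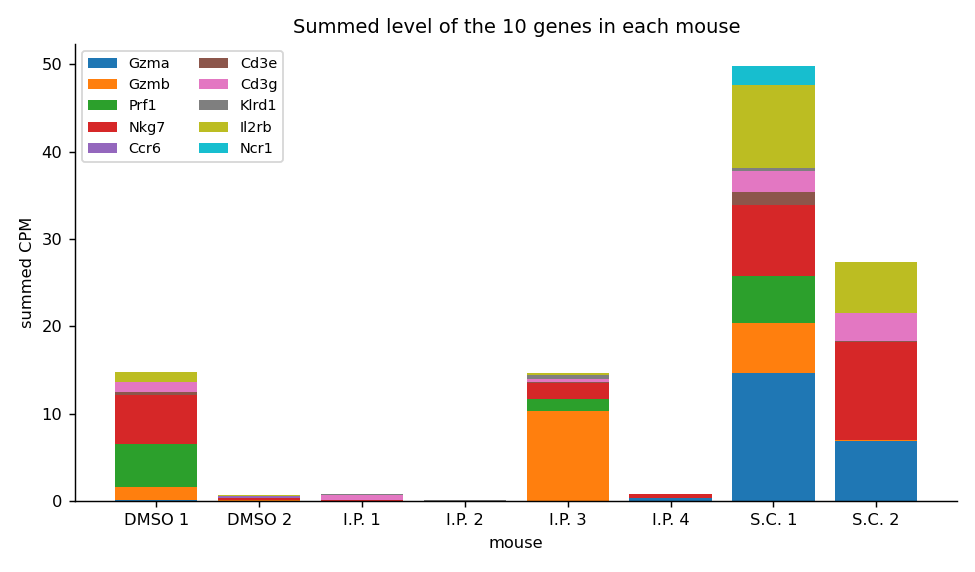
Summed level of the 10 genes in CPM (vertical axis) in each mouse (horizontal axis), with 1 colour per gene. S.C. mouse 1 reached 49.9 CPM and S.C. mouse 2 27.5 CPM, and the granzyme gene that dominated was Gzma in the S.C. mice and Gzmb in I.P. mouse 3.

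Divided by the exon length of the gene, which allows levels to be compared between genes, S.C. mouse 1 had 14.5 CPM per kb of Gzma and 8.94 of Nkg7. Gzmb followed at 3.99, Il2rb at 2.23, Prf1 at 2.09 and Ncr1 at 1.41 CPM per kb, and Cd3g and Cd3e were lower at 0.726 and 0.372. In S.C. mouse 2 the order began with Nkg7 at 12.4 CPM per kb, then Gzma at 6.82, Il2rb at 1.36 and Cd3g at 0.994. In both mice the level per length of Gzma and Nkg7 was above that of either CD3 chain.

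The share of each gene's CPM that lay in the S.C. mice set the genes in an order. It was 97.7% for Gzma, 97.5% for Ncr1 and 91.1% for Il2rb, then 75.7% for Cd3e, 72.6% for Cd3g and 70.4% for Nkg7. It was 46.4% for Prf1, 34.2% for Klrd1, 33.0% for Gzmb and 0% for Ccr6. The 97.5% of Ncr1 came from a single mouse, while Gzma and Il2rb were shared by both.

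**Figure D3:**
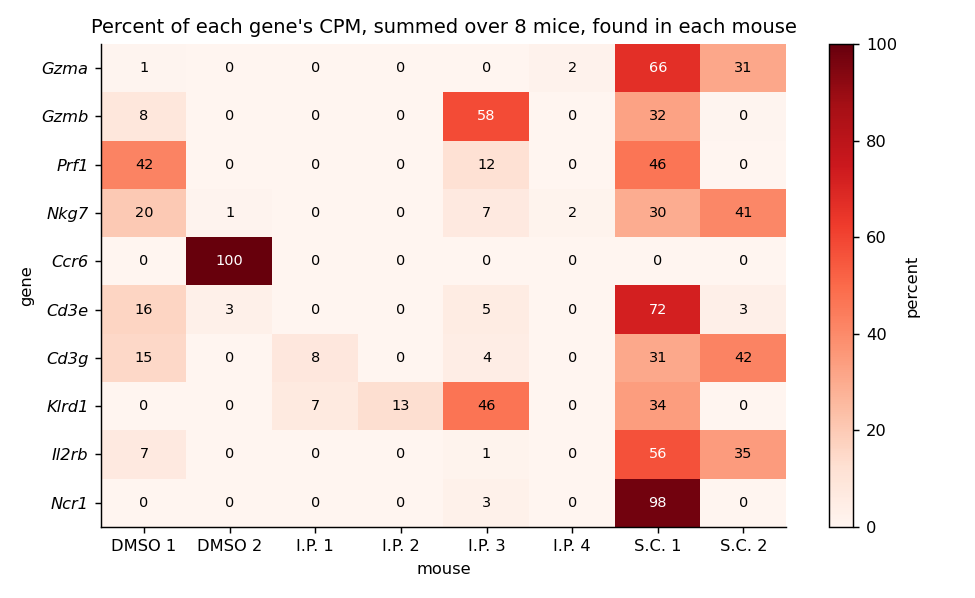
Percent of the CPM of each gene (rows), summed over 8 mice, that was found in each mouse (columns), with darker red for a larger share. Both S.C. columns are filled for Gzma, Nkg7, Cd3g and Il2rb, and the S.C. 1 column alone of that group for Gzmb, Prf1, Cd3e, Klrd1 and Ncr1.

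S.C. mice 1 and 2 differed from each other by gene. Gzma was 2.13-fold higher in S.C. mouse 1 than in mouse 2 (95% interval 1.67 to 2.74) and Il2rb 1.63-fold (1.24 to 2.17). Nkg7 was at 0.721-fold (0.565 to 0.918) and Cd3g at 0.73-fold (0.457 to 1.16), an interval that includes 1. Gzmb was 79.4-fold higher in mouse 1 (13.9 to 3170) and Cd3e 21.0-fold (3.41 to 864), each against 1 count. Against 0 counts, Prf1 was at least 24.9-fold higher, Ncr1 at least 10-fold and Klrd1 at least 1.52-fold. The intervals of Gzmb and Cd3e lay wholly above those of Gzma, Il2rb, Nkg7 and Cd3g, so no single ratio between the mice described all genes. These intervals compare 2 libraries and not conditions.

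**Figure D4:**
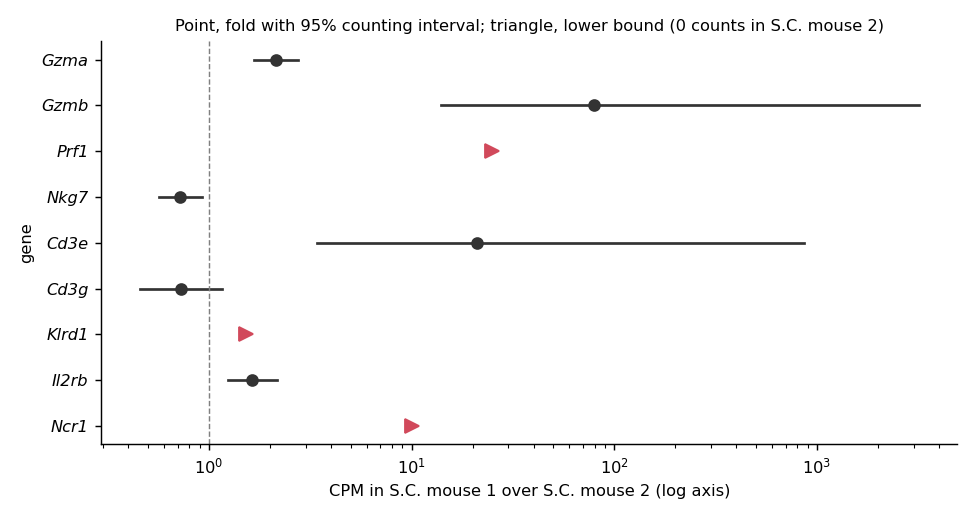
Level in S.C. mouse 1 over that in S.C. mouse 2 (horizontal log axis) for 9 genes, with points and lines for the fold and its 95% counting interval and triangles for lower bounds where mouse 2 had 0 counts. Gzma, Nkg7, Cd3g and Il2rb lie near 1, from 0.721 to 2.13, and Gzmb and Cd3e at 79.4 and 21.0.

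The DMSO mice also differed from each other. DMSO mouse 1 exceeded DMSO mouse 2 by 19.3-fold in Nkg7 (7.96 to 61.1), by 25.9-fold in Gzmb (4.19 to 1070) and by 20-fold in Il2rb (3.14 to 838). Prf1 was at least 28.3-fold and Cd3g at least 6.68-fold higher in DMSO mouse 1. Cd3e was 5.9-fold higher there, with an interval from 0.66 to 279. For Nkg7, Gzmb, Il2rb, Prf1, Cd3g and Cd3e the fold between the 2 control mice, or its lower bound, was larger than the pooled fold of S.C. over DMSO mice. The intervals overlapped for Gzmb, Il2rb and Cd3e, and the lower bound of Cd3g lay inside the interval of its pooled fold (3.09 to 9.46).

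The I.P. mice allowed a test, since their contrast with DMSO mice did not choose the genes. Of the 10 genes, 3 passed the filter on low counts, and by edgeR's quasi-likelihood test 0 of these were called (unadjusted P under 0.05 and at least 2-fold), where 2.0% of 12174 genes were called in either direction, 1.53% higher and 0.468% lower. For 0 of the 10 genes did all I.P. mice lie on one side of both DMSO mice, while 13.7% of genes with at least 15 counts over all mice did so. These figures cannot be compared, since zeros limit such a separation. I.P. mouse 2 had counts for only 1 of the 10 genes and DMSO mouse 2 for 5. None of the 3 had an unadjusted P under 0.05, also with the likelihood ratio test and with DESeq2, which gave no P for Gzmb. The log2 fold change was 1.76 for Gzmb (SE 2.41), -2.79 for Prf1 (SE 1.93) and -2.29 for Nkg7 (SE 1.48), with an adjusted p of 0.98 each by edgeR. The standard errors left room for changes of several fold in either direction. The Prf1 and Nkg7 values rested on DMSO mouse 1, and without it they turned to 5.56 and 1.01. Without I.P. mouse 3 none of the 10 genes passed the filter.

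Other lymphocyte genes were read from 3 lists with 67 genes beyond the 10, namely further effectors, NK receptors and regulators, and T cell receptor complex and signalling genes. The lists were not confined to genes of cytotoxic cells, and Slamf7, for example, stood at 122 to 429 CPM over the mice. Of the 67 genes, 38 had at least 15 counts over all mice. S.C. mouse 1 was highest for 17 of the 38 (44.7%), against 19.9% of all genes, and S.C. mouse 2 for 7 (18.4%), against 19.9%. Both S.C. mice were above all other mice for 4 of 38 (10.5%), against 5.12% of all genes.

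By the edgeR test of S.C. against DMSO mice, 1 of 15 tested genes of these lists was called, higher, where 5.06% of 11680 genes were called, 2.29% higher and 2.77% lower. It was Sh2d1b1, which encodes the adaptor EAT-2 of SLAM-family receptors, with a log2 fold change of 1.39 (SE 0.51, adjusted p = 0.869). Its counts were 215 and 153 in DMSO mice 1 and 2, 310, 157, 648 and 150 in I.P. mice 1 to 4, and S.C. mice 1 and 2 had 351 and 531. In CPM, Sh2d1b1 was highest in S.C. mouse 2 (38.4), with I.P. mouse 3 (36.3) close below and above S.C. mouse 1 (23.1). The call was lost without either DMSO mouse, without S.C. mouse 2, with library size only, with all 3 groups in 1 fit and with the replicate block. Fits without S.C. mouse 1 or 2 took the lone S.C. mouse to vary like the DMSO mice. In them a gene could pass the filter on low counts through a single mouse. Their counts of called genes were therefore partly set by the filter and are not read here.

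Against I.P. mice, 3 of 19 tested genes of these lists were called, Klrk1, Klrc1 and Lat, where 7.05% of 12206 genes were called, 2.41% higher and 4.64% lower. Klrk1, which encodes the activating receptor NKG2D, rose by 2.21 on the log2 scale (SE 0.94, adjusted p = 0.569). Klrc1, which encodes the NKG2A chain that pairs with CD94, rose by 4.77 (SE 1.56, adjusted p = 0.445), and Lat, an adaptor below the T cell receptor, by 2.95 (SE 0.96, adjusted p = 0.444). Klrc1 and Lat had under 10 counts in every I.P. mouse and passed the filter on low counts only through the S.C. mice, so their being called higher, and the count of 3, were largely set by the filter. The calls of Klrk1 and Klrc1 were lost without S.C. mouse 1, and that of Lat without S.C. mouse 2. The call of Klrk1 was also lost without I.P. mouse 1, 2 or 4. At an adjusted p under 0.05, edgeR called 0 genes in this contrast and in S.C. against DMSO mice. There were 1049 and 632 genes with an unadjusted P under 0.05, and DESeq2 gave 234 and 107 genes by adjusted p.

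Klrc1 had 6 and 0 counts in DMSO mice 1 and 2, 0, 0, 4 and 0 counts in I.P. mice 1 to 4, and in S.C. mice 1 and 2 it had 39 and 13. The S.C. mice were above all others, which was not so for its partner Klrd1. Klrk1 had 116 and 9 counts in DMSO mice 1 and 2, 41, 10, 138 and 37 in I.P. mice 1 to 4, and S.C. mice 1 and 2 had 375 and 72. Its 3 highest mice were those in which Prf1 was found. Reads of Klrc1 may be shared with close relatives in its gene family. Lat had 11 and 6 counts in DMSO mice 1 and 2, 2, 9, 6 and 6 in I.P. mice 1 to 4, and S.C. mice 1 and 2 had 25 and 51.

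Further genes of these lists were singled out after their values were seen, and 3 of them were, like Prf1 and Ncr1, high in S.C. mouse 1 and low in mouse 2. Cd2, an adhesion receptor of T and NK cells, had 122 counts in S.C. mouse 1 and 1 in mouse 2, Lck, the kinase below the T cell receptor, 173 and 4, and Ctsw, a protease of cytotoxic cells, 76 and 1. In the other 6 mice Cd2 had at most 10 counts, Lck at most 47 and Ctsw at most 4. Some genes of these lists went the other way, such as Klrb1c, with 0 and 47 counts in S.C. mice 1 and 2, and Txk, with 0 and 29. The NK cell regulators Eomes and Tbx21 had 0 or 1 count in each S.C. mouse. Cd4, which TAMs can also express, had 1 count in S.C. mouse 1 and 161 in S.C. mouse 2. It had 131 and 126 counts in DMSO mice 1 and 2 and 17, 141, 56 and 183 in I.P. mice 1 to 4. In CPM, S.C. mouse 2 (11.6) was slightly above the highest of those mice (11.0, I.P. mouse 4), and S.C. mouse 1 (0.0659) was below all of them. Ifng, the interferon of NK and T cells, had 68 counts in DMSO mouse 1, 9 in I.P. mouse 3 and 0 in the other 6 mice. Gzmc and Gzmd were highest in I.P. mouse 3, with 24 and 18 counts, the mouse in which Gzmb was highest, and reads may be split among these related granzyme genes.

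**Figure D5:**
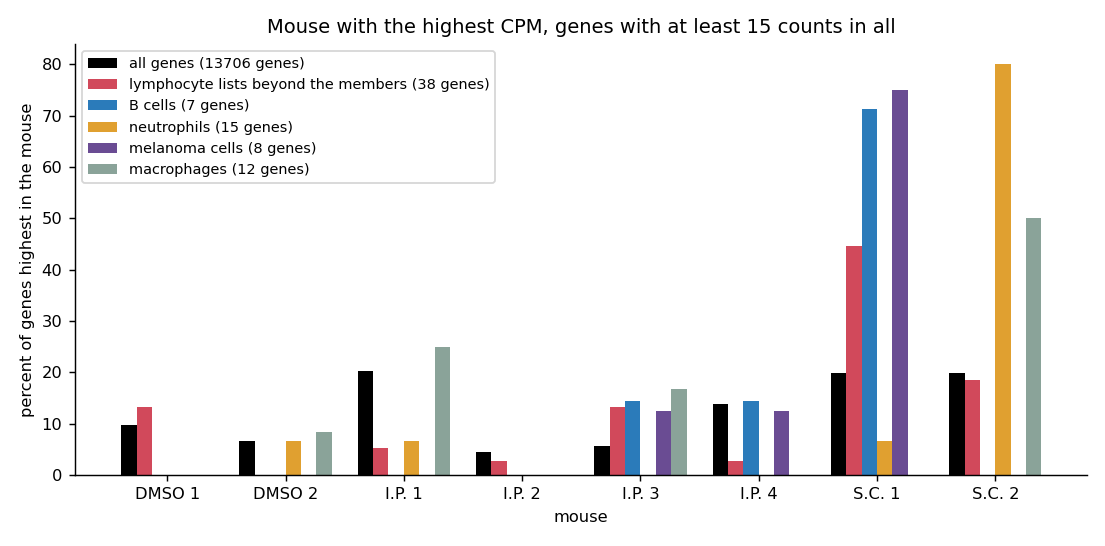
Percent of the genes of a list (vertical axis) whose highest CPM lay in each mouse (horizontal axis), for genes with at least 15 counts over all mice, with 1 colour per list. S.C. mouse 1 was highest for 44.7% of the lymphocyte genes beyond the 10 and S.C. mouse 2 for 80.0% of the neutrophil genes, against 19.9% of all genes in either mouse.

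Genes of the cytokine axis of Il2rb were counted in the same way. Of 15 genes for interleukin-2 and interleukin-15 signalling, 12 were tested in S.C. against DMSO mice and 1 was called, Il7r, the interleukin-7 receptor chain, higher by 1.21 on the log2 scale (SE 0.48, adjusted p = 0.91 by edgeR). Il7r was also called higher in I.P. mice, by 1.30 (SE 0.32, adjusted p = 0.98 by edgeR), under every alternative run. Both contrasts share the DMSO mice. The S.C. call of Il7r, 1 of 12 where 5.06% of all genes were called and 2.29% called higher, was lost without either DMSO mouse, without S.C. mouse 2, with library size only and with the replicate block crossed. The median log2 fold change of the list was -0.034 in S.C. mice, against 0.018 over all genes tested.

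Il2rg encodes the common gamma chain, which joins the Il2rb product in both receptors, and TAMs express it strongly. Il2rg had 5541 and 2470 counts in DMSO mice 1 and 2, 1321, 1792, 3487 and 1956 in I.P. mice 1 to 4, and S.C. mice 1 and 2 had 4387 and 3812. Both S.C. mice were above all I.P. mice and between the DMSO mice. By edgeR it was called higher in S.C. than in I.P. mice, by 1.18 on the log2 scale (SE 0.34, adjusted p = 0.374), under every alternative run. It was called lower in I.P. than in DMSO mice, with a log2 fold change of -1.04 (SE 0.43, adjusted p = 0.98), a call lost without DMSO mouse 1 and without I.P. mouse 1, 2 or 4. Il2rg was named because it was called and pairs with Il2rb. Il15ra, for another interleukin-15 receptor chain, was also called in these contrasts, in the opposite directions. By edgeR it was higher in I.P. than in DMSO mice (log2 fold change 1.59, SE 0.58, adjusted p = 0.98). It was lower in S.C. than in I.P. mice (-2.70, SE 1.0, adjusted p = 0.497). The I.P. against DMSO call was lost with all 3 groups in 1 fit, and the S.C. against I.P. call without I.P. mouse 1.

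Of 12 genes for chemokines of lymphocytes and their receptors, 9 were tested in S.C. against DMSO mice and 2 were called, both higher, beside 5.06% of all genes called and 2.29% called higher. These were Ccl3 and Ccl4, chemokines that macrophages also make, at 1.08 and 1.34 on the log2 scale, with adjusted p of 0.842 and 0.812 by edgeR. Both calls were lost without S.C. mouse 1 and without DMSO mouse 2, and that of Ccl3 also without DMSO mouse 1, with library size only, with all 3 groups in 1 fit and with the replicate block. Of 15 genes for granzyme partners and ligands of NK receptors, 12 were tested and 0 were called by edgeR, and 0 had an unadjusted P under 0.05.

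Some marker genes of B cells, neutrophils and melanoma cells were called higher in the S.C. mice. Of these lists, only that of neutrophils had a summed level above all DMSO and I.P. mice in both S.C. mice. Of all genes tested against DMSO mice, 5.06% were called and 2.29% were called higher. Of 11 B cell genes, 4 were tested against DMSO mice and 2 were called, both higher, among them Cd79a, a chain of the B cell receptor, with 133 and 29 counts in S.C. mice 1 and 2 and at most 17 in the others. Their summed level was 39.0 and 77.1 CPM in DMSO mice, 51.5 to 81.7 CPM in I.P. mice and 72.8 and 88.0 CPM in S.C. mice, and the defining gene Pax5 was at 0 in all 8 mice. Of 17 neutrophil genes, 12 were tested and 6 were called, all higher, with summed levels of 187 and 199 CPM in DMSO mice, 139 to 197 CPM in I.P. mice and 291 and 551 CPM in S.C. mice. Of 8 melanoma genes, 8 were tested and 3 were called, all higher, with summed levels of 627 and 711 CPM in DMSO mice, 481 to 1810 CPM in I.P. mice and 3000 and 747 CPM in S.C. mice. Some of these genes, such as Cd79a and Ltf, had under 10 counts in both DMSO mice and passed the filter only through the S.C. mice. The call of Cd79a was lost without either DMSO mouse, those of Camp, Lcn2 and S100a8 without S.C. mouse 2, and those of Dct, Sox10 and Tyrp1 without S.C. mouse 1. Neutrophil genes were thus highest in S.C. mouse 2, where Prf1 and Ncr1 were at 0, and melanoma genes in S.C. mouse 1. The part of these cells in the levels of the 10 genes was not tested.

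Of the lists for dendritic cells, erythrocytes and platelets, 5, 5 and 2 genes were tested in S.C. against DMSO mice, and 0 had an unadjusted P under 0.05 by edgeR. Of the 12 macrophage genes, all were tested and 1 was called, lower, in S.C. against DMSO mice, with a list median of 0.26 on the log2 scale. It was Mrc1, the mannose receptor, and the call was lost without S.C. mouse 1 and without DMSO mouse 2. S.C. mice 1 and 2 had summed levels of 37900 and 41500 CPM of these genes, the highest of the 8 mice.

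Genes whose pattern over the 8 mice was most like that of the summed 10 genes were taken from 11348 genes whose mean over the mice reached 1 CPM. Likeness was the part of a gene's percent profile, in percentage points, that would have to move between mice to give the profile of the sum. Of the 10 closest, 9 are named here. The closest was Gimap6, a GTPase gene of lymphocytes, at 12.6 points. Next came Ciita, the regulator of MHC class II genes, at 13.9, Klrk1 at 15.1 and Sytl2 at 15.2, followed by Garnl3, Ms4a4b, Flt1, Itga8 and Elmo3 at 15.4 to 16.8 points. Of the 10 genes themselves, Il2rb was nearest at 20.2 points and Ccr6 farthest at 99.4. Gimap6 had 26 and 16 counts in DMSO mice 1 and 2, 2, 3, 11 and 1 in I.P. mice 1 to 4, and S.C. mice 1 and 2 had 119 and 66. With a minimum mean of 5 CPM, 2 of these 10 closest genes stayed among the 10 closest.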

How the data were processed

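RNA-seq libraries of TAMs from 8 mice, 1 library per mouse, were used, and mice were grouped by their sample labels. The raw counts per gene were deposited by the authors as whole numbers without normalization. The study's methods name bowtie2 and RSEM for alignment to mm10 and counting, while the submitters' processing notes name TopHat2 and edgeR. Strandedness is not given in the sources used here.

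The software was edgeR 4.0.16 and DESeq2 1.42.0 under R 4.3.3. For each pair of groups, genes were kept by filterByExpr (minimum count 10, minimum total 15), scaled by TMM and tested two-sided with glmQLFTest of edgeR's quasi-likelihood method. Called genes had an unadjusted P under 0.05 and at least a 2-fold change, the study's criterion. P values were adjusted by Benjamini-Hochberg over all genes tested. An SE is the absolute log2 fold change over the square root of F. The procedure was tested on simulated data. CPM used TMM-scaled library sizes over 8 mice, with a prior count of 2 on the log2 scale for differences without a test. Ratio intervals were exact (Clopper-Pearson, 95%) on pooled counts.

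The genes and lists were chosen with earlier results of these data known. All 10 genes were described. From each other list the 3 genes with the smallest P in S.C. against DMSO mice, genes at 0 in all mice and the 10 closest in pattern could be named, and others are marked as singled out, or were named because they were called or because they define a cell type. Of the genes in the lists, 4 were not used here, and some single results are not reported here. Each library was of 1 mouse. Alternatives were DESeq2, the likelihood ratio test, RLE size factors or library size alone, no filter or a filter of 1 CPM in 2 samples, a joint fit of all 3 groups, a replicate block, other prior counts and leaving out each mouse. A crossed block and library size for the ratio of the S.C. mice were chosen after the data were seen. Gene positions are from GENCODE vM21 and promoters from RefSeq.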

Additional observations from a re-analysis of the deposited data

Results flagged for a closer look

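In the I.P. group, the highest mouse stood apart from the other 3 by Dixon's ratio for 5 of 9 genes. I.P. mouse 3 did so for Gzmb at 10.3 CPM, for Prf1 at 1.34 CPM, for Cd3e at 0.112 CPM and for Ncr1 at 0.056 CPM, and I.P. mouse 4 for Gzma at 0.36 CPM. In each case the other 3 mice had 0 counts. The ratio is then at its maximum whatever the highest value, also for the 2 counts of Cd3e and the 1 count of Ncr1, so the usual chance rate of about 1 in 20 does not apply and the values are given as a description. The DMSO and S.C. groups, with 2 mice each, could not be examined in this way.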

How the results depend on the processing

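The count of the 10 genes called in I.P. against DMSO mice was 0 under every alternative that tested any of them. Without DMSO replicate 1 the log2 fold changes turned to 5.56 for Prf1 and 1.01 for Nkg7, and leaving out 1 mouse gave -3.80 to 5.56, -3.23 to 1.01 and, for Gzmb, 0.79 to 5.32. The mean log2 difference over the 10 genes was 1.97 for S.C. over DMSO mice (0.96 to 2.99 with 1 mouse left out) and 2.66 for S.C. over I.P. mice (1.64 to 3.67). Genes called in all numbered 243 for I.P. mice (116 to 361 with 1 mouse left out, 160 with all 3 groups in 1 fit), 591 for S.C. against DMSO mice (113 to 3432, lowest without DMSO mouse 2 and highest without S.C. mouse 2) and 860 for S.C. against I.P. mice (632 to 2115). With library size only the S.C. against DMSO split was 196 higher and 429 lower, in place of 268 and 323. Lymphocyte genes beyond the 10 that were called in I.P. mice numbered 0 (0 to 2 with 1 mouse left out), 4 without a filter and 1 by the likelihood ratio test. Against DMSO, in S.C. mice they numbered 1 (1 to 17 with 1 mouse left out), 6 without a filter, 0 with library size only, 2 by the likelihood ratio test and 2 by DESeq2. Against I.P. mice they numbered 3 (2 to 14), 15 without a filter and 5 by the likelihood ratio test. Same-numbered mice share only a number, with correlations of deviations from -0.129 to 0.0707. The replicate block gave 389 genes in S.C. against I.P. mice, with 1 lymphocyte gene, and 291 genes in I.P. and 429 in S.C. against DMSO mice, and the block with the numbers crossed gave 475 genes in S.C. against DMSO mice, with 2 lymphocyte genes. The cause of these shifts was not tested. In fits that left 1 mouse in a group, a gene could pass the filter through a single mouse, so their counts were partly set by the filter. Depth limits Ccr6, Klrd1 and Cd3e most, with 3, 16 and 32 counts over all mice.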
